A study of Homo sapiens with 12 samples.

Results

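The insulin-like growth factor (IGF) system was followed as 10 mRNAs: the ligands IGF1 and IGF2, the receptors IGF1R and IGF2R, and the binding proteins IGFBP2, IGFBP3, IGFBP4, IGFBP5, IGFBP6 and IGFBP7. They were taken by name from the 57773 genes listed, and 9 of the 10 were among the 21518 genes with enough counts to be tested. IGF1 was the member that did not pass the filter on low counts.

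IGF1 and IGF2 are secreted growth factors that signal through IGF1R, a receptor tyrosine kinase that drives the PI3K-AKT and ERK cascades. IGF2R, also known as the cation-independent mannose 6-phosphate receptor, carries lysosomal enzymes and takes up IGF2 for degradation. The IGFBPs are secreted proteins that hold IGFs away from the receptor or release them when cleaved by proteases, and several of them are familiar members of the secretome of senescent fibroblasts.

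The RNA came from WI-38, a single line of human diploid fibroblasts kept between population doubling levels 15 and 25. The proliferating group received a non-targeting siRNA pool (siCtrl) and was grown for 8 days with DMSO as the vehicle. The other 3 groups were made senescent over 8 days with etoposide at 50 µM, a drug that poisons topoisomerase and so leaves DNA breaks. These groups received, respectively, siCtrl, a pool of siRNAs against NTRK2 mRNA (siNTRK2) and a pool against BDNF mRNA (siBDNF). NTRK2 encodes the neurotrophin receptor TrkB, and BDNF a ligand of TrkB. All siRNAs were used at 25 nM, and each group had 3 libraries.

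The libraries held between 31567912 and 72328151 counts. Levels are given as CPM, that is, counts scaled to a common library size after normalization for library composition, and differences as log2 fold changes ± standard error from edgeR's quasi-likelihood test, with p-values adjusted over all 21518 genes and called below 0.05. The labels do not say whether the libraries of a group came from separate cultures, so the p-values measure only the spread between these libraries. Where the libraries of groups are said not to overlap, this is a description. How often that holds over all tested genes was not counted, so it sets no member apart. In bulk RNA, a change in the number of cells that express a gene and a change in the amount of mRNA per cell cannot be told apart. The fibroblast markers (8 of 8) were detected in every group, with a summed level of 22924 CPM or more. The epithelial markers summed to at most 1.79 CPM, whereas the leukocyte markers summed to 49.6 to 183 CPM, almost all of it CD68, with PTPRC, CD3E and LYZ at 0 in every proliferating library. NTRK2 mRNA had 0 counts in all 3 siNTRK2 libraries, but it was barely detected elsewhere, with 7 to 15 counts per senescent siCtrl library and 1 to 11 per proliferating library. BDNF mRNA fell by 1.79 on the log2 scale with siBDNF (edgeR adjusted p = 1.72e-18) and rose from 162 to 205 CPM with siNTRK2 (0.33 ± 0.046, edgeR adjusted p = 8.35e-06).

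Per length of mRNA, IGFBP4 and IGFBP5 were the most abundant members in proliferating cells. IGFBP4 reached 529 ± 28.8 CPM per kilobase and IGFBP5 477 ± 10.7 (SD, n = 3), followed by IGFBP7 at 188 ± 3.20, IGFBP6 at 145 ± 6.53 and IGFBP3 at 117 ± 1.39. IGF2R stood at 14.4 ± 0.165 CPM per kilobase, while IGF1R, IGFBP2 and IGF2 lay close together at 3.87 ± 0.123, 3.66 ± 0.194 and 3.06 ± 0.395 (SD, n = 3). The binding protein mRNAs other than IGFBP2 were thus far more abundant per length than the ligand and receptor mRNAs.

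IGFBP4 and IGFBP5, the binding protein mRNAs most abundant per length in proliferating cells, which moved in different directions below, are shown by the 100 bases upstream of their annotated start in GRCh37, on the strand of the gene. Capitals mark exact matches to the TATA box letters TATAAA or to the GC box letters GGGCGG, searched on both strands so that CCGCCC is the same box read from the other strand.
IGFBP4, chr17:38599602-38599701, plus strand: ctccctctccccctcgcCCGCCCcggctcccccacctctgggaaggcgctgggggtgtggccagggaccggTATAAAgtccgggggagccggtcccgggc
IGFBP5, chr2:217560273-217560372, minus strand: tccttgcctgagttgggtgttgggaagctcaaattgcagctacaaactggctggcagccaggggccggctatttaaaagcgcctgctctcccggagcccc

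The IGFBP4 window held 1 TATA box, from position -29 to -24, and 1 GC box. The IGFBP5 window held no exact match to either box, and no CCAAT letters were in these windows. The IGFBP5 letters tatttaaa do not match TATAAA exactly, and looser forms were not searched. Over 19123 windows of the same length, 5.53% held the TATA letters, 46.4% the GC box letters and 20.7% CCAAT. The GC content was 76.0% for IGFBP4 and 59.0% for IGFBP5, beside a median of 67.0%. These matches describe the letters in these windows and were not tested for a part in the levels.

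The first comparison asked how the IGF system mRNAs differ between etoposide-induced senescence and proliferation, both with siCtrl. All 9 tested members were called, 6 higher and 3 lower in senescent cells, where 58.1% of all tested genes were called, 29.8% higher and 28.3% lower. The median log2 fold change was 0.40 over the 9 members and 0.02 over all tested genes. IGFBP2 rose most, about 4-fold, and IGFBP5, the most counted member in proliferating cells, fell to 0.531 of its level.

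IGFBP2 (ENSG00000115457, chromosome 2, 217497551 to 217529159, plus strand), which binds IGF2 with high affinity, was measured at 4.99, 5.06 and 5.49 CPM in the proliferating libraries and at 21.6, 20.9 and 20.5 CPM in the senescent siCtrl libraries. Every senescent library was thus above every proliferating one, a log2 fold change of 2.03 ± 0.093 (edgeR adjusted p = 1.32e-15). IGFBP2 was the only member past an absolute log2 fold change of 1, a size reached by 16.7% of all tested genes.

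IGFBP7 (ENSG00000163453, chromosome 4, 57896939 to 57976551, minus strand), a matrix-associated protein with low affinity for IGFs, was at 263, 269 and 272 CPM in proliferating cells and at 463, 505 and 453 CPM in senescent cells. The groups did not overlap, and the log2 fold change was 0.82 ± 0.046 (edgeR adjusted p = 6.57e-14). IGFBP4 (ENSG00000141753, chromosome 17, 38599702 to 38613977, plus strand), an inhibitor of IGF action until it is cleaved, stood at 1134, 1128 and 1241 CPM in proliferating cells and at 1936, 1761 and 1882 CPM in senescent cells. It rose by 0.67 ± 0.047 on the log2 scale (edgeR adjusted p = 6.66e-12), again with no overlap.

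IGFBP6 (ENSG00000167779, chromosome 12, 53491220 to 53496129, plus strand), which prefers IGF2 over IGF1, was at 138, 131 and 143 CPM in proliferating cells and at 174, 172 and 172 CPM in senescent cells. The libraries were separate, but the change was the smallest among the binding proteins (0.33 ± 0.046, edgeR adjusted p = 9.96e-07).

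The other binding proteins moved down. IGFBP5 (ENSG00000115461, chromosome 2, 217536828 to 217560272, minus strand), which attaches to extracellular matrix, was at 2950, 2920 and 3048 CPM in proliferating cells and at 1547, 1606 and 1579 CPM in senescent cells. The highest senescent library lay well below the lowest proliferating one, and the log2 fold change was -0.91 ± 0.039 (edgeR adjusted p = 2.80e-16). IGFBP2 and IGFBP5 are neighbours on chromosome 2, transcribed from opposite strands, and they moved in opposite directions.

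IGFBP3 (ENSG00000146674, chromosome 7, 45951844 to 45961473, minus strand), the main IGF carrier of serum, was at 301, 308 and 305 CPM in proliferating cells and at 214, 206 and 223 CPM in senescent cells. All senescent libraries were lower, and the log2 fold change was -0.51 ± 0.042 (edgeR adjusted p = 1.11e-10).

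**Figure D1:**
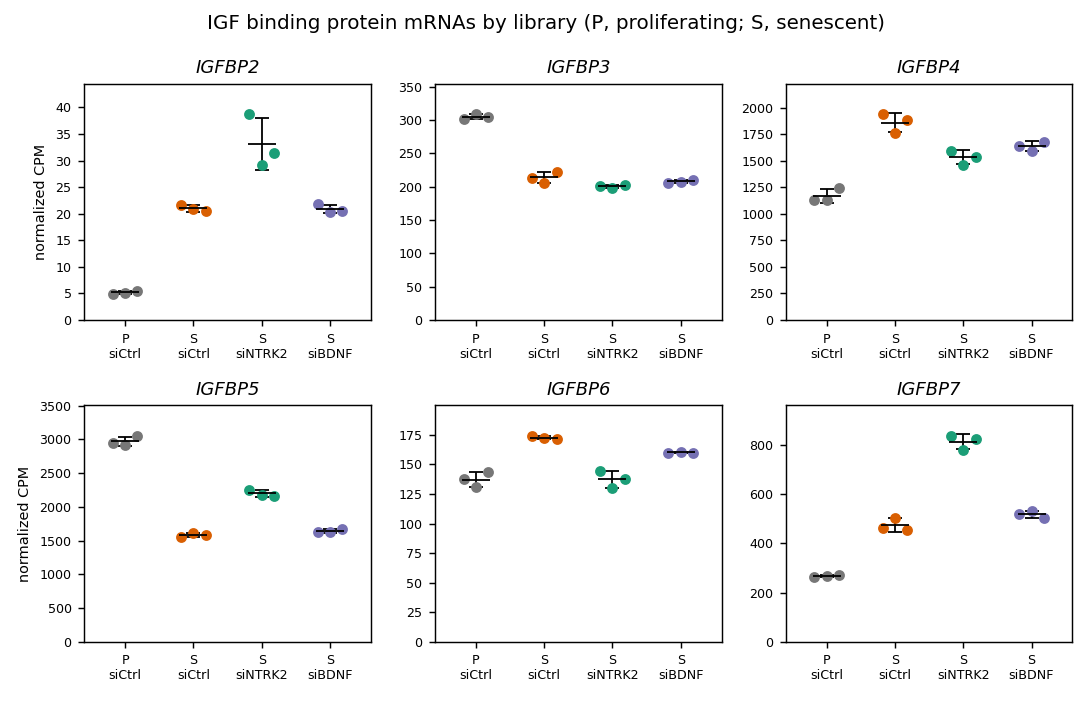
Level of the 6 IGF binding protein mRNAs (y axis, normalized CPM from 0) in each of the 12 libraries (points) by group (x axis, P proliferating, S senescent), with bars for the mean and SD. IGFBP2 is lowest in the proliferating libraries at 4.99 to 5.49 CPM, IGFBP5 is highest there at 2920 to 3048 CPM, and IGFBP7 is highest with siNTRK2 at 779 to 835 CPM.

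Among the ligands, IGF1 (ENSG00000017427, chromosome 12, 102789652 to 102875522, minus strand) was near the limit of detection, with 19, 3 and 3 counts in the proliferating libraries, 6, 7 and 0 in the senescent siCtrl libraries, 9, 4 and 5 with siNTRK2 and 3, 17 and 8 with siBDNF. The floor was set at 3 counts, which is 0.0427 to 0.0916 CPM depending on the library and covers counting error only, since several reads can stem from 1 molecule. The 4 groups overlapped, and a difference in IGF1 was not detectable at this depth (edgeR adjusted p = 0.387 for senescence in a fit without the filter). IGF2 (ENSG00000167244, chromosome 11, 2150342 to 2179621, minus strand) was therefore the ligand mRNA that could be followed.

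IGF2 was at 17.2, 14.8 and 19.2 CPM in proliferating cells and at 20.6, 23.2 and 23.2 CPM in senescent cells. The lowest senescent library was just above the highest proliferating one, and the log2 fold change was 0.40 ± 0.095 (edgeR adjusted p = 8.87e-04). The IGF2 gene shares 1460 exon bases on the same strand with INS-IGF2, a readthrough gene whose counts were 13.5% to 20.96% of those of IGF2. It also shares 373 exon bases on the same strand with the lncRNA ENSG00000240801, which had 2181 counts over the 12 libraries, beside 2439 for INS-IGF2. INS-IGF2 itself was not called in senescence (0.28 ± 0.16, edgeR adjusted p = 0.131), and how reads of the shared exons were assigned is not stated.

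The receptors moved apart. IGF1R (ENSG00000140443, chromosome 15, 99191768 to 99507759, plus strand), the signalling receptor, was at 46.3, 46.7 and 49.1 CPM in proliferating cells and at 38.1, 38.4 and 39.0 CPM in senescent cells. Every senescent library was lower, and IGF1R fell by 0.30 on the log2 scale (standard error 0.053, edgeR adjusted p = 3.55e-05).

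IGF2R (ENSG00000197081, chromosome 6, 160390114 to 160534539, plus strand), the scavenging receptor, was at 199.9, 204 and 201 CPM in proliferating cells and at 298, 311 and 273 CPM in senescent cells. The groups were separate, and the log2 fold change was 0.54 ± 0.047 (edgeR adjusted p = 2.91e-10).

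Other marker mRNAs moved in the same comparison. Of 9 proliferation markers, 8 fell, and their summed level was 433 to 447 CPM in proliferating and 142 to 145 CPM in senescent siCtrl libraries. Of 8 fibroblast markers, 6 fell and 1 rose, with sums of 31567 to 33494 CPM and 22924 to 24735 CPM, respectively. Among 6 senescence markers, 5 rose and 1, IL6, fell. Markers of other cell types moved as well. All 4 tested leukocyte markers of 5 rose, and the list's sum was 49.6 to 56.6 CPM in proliferating and 108 to 114 CPM in senescent siCtrl libraries, where CD68, a lysosomal protein best known from macrophages, accounted for 109 CPM on average and PTPRC for 0.944 CPM. Of 3 tested endothelial markers 1 rose and 1 fell, and the list's sum was 75.3 to 78.2 CPM in proliferating and 34.4 to 36.2 CPM in senescent siCtrl libraries, most of it TEK (75.5 and 32.8 CPM on average). Of 3 tested epithelial markers 2 rose, with a sum of no more than 1.27 CPM, and of 4 tested myocyte and neuron markers 2 rose, with sums of 5.03 to 6.47 and 4.92 to 5.70 CPM. PTPRC, CD3E, LYZ, KRT5, KRT14, ESRP1, CDH5 and MYOG had 0 counts in every proliferating library. Any of these that was tested passed the filter only through senescent libraries and could only rise. The part of the marker mRNAs in the IGF system changes was not tested.

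**Figure D2:**
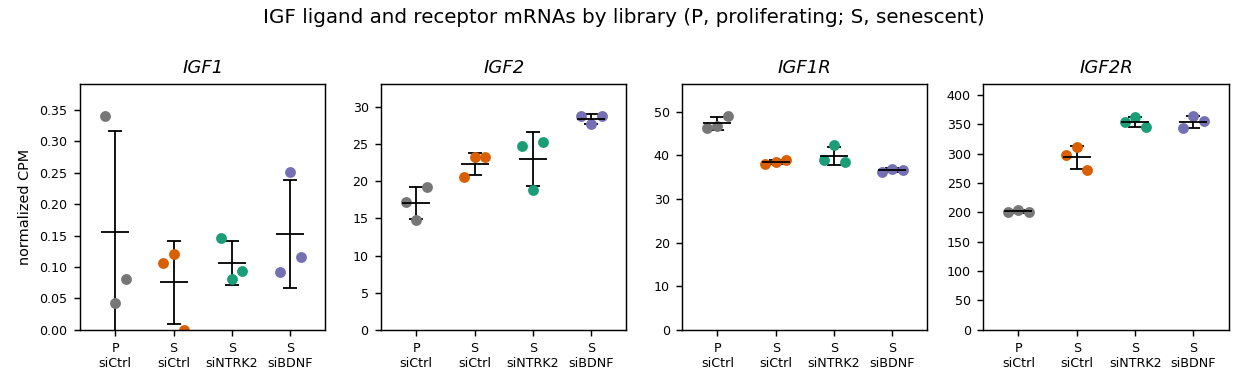
Level of the IGF ligand and receptor mRNAs (y axis, normalized CPM from 0) in each of the 12 libraries (points) by group (x axis, P proliferating, S senescent), with bars for the mean and SD. IGF1 stays below 0.341 CPM in all libraries, IGF1R is highest in the proliferating libraries at 46.3 to 49.1 CPM, and IGF2R is lowest there at 199.9 to 204 CPM.

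The next comparison asked what siNTRK2 did to these mRNAs in senescent cells. Of the 9 tested members, 4 rose and 2 fell against senescent siCtrl, where 21.1% of all tested genes were called, 11.1% higher and 10.0% lower. The median log2 fold change was 0.05 over the members and -0.0024 over all tested genes. IGFBP7 rose most, 1.72-fold, followed by IGFBP2 at 1.58-fold and IGFBP5 at 1.39-fold, and no member passed an absolute log2 fold change of 1, a size reached by 0.957% of tested genes.

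With siNTRK2, IGFBP7 was at 835, 779 and 826 CPM, above the 453 to 505 CPM of senescent siCtrl libraries. The log2 fold change was 0.78 ± 0.045 (edgeR adjusted p = 8.40e-12), and the siNTRK2 libraries lay 3.03-fold above the proliferating level. IGFBP2 was at 38.7, 29.2 and 31.5 CPM, all above the 3 siCtrl libraries but more widely spread than in any other group. Its log2 fold change was 0.66 ± 0.080 (edgeR adjusted p = 1.41e-06).

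IGFBP5 was at 2252, 2181 and 2165 CPM with siNTRK2. These libraries fell between the senescent siCtrl and the proliferating ones, with a log2 fold change of 0.48 ± 0.038 against the former (edgeR adjusted p = 1.96e-09) and of -0.43 ± 0.038 against the latter (edgeR adjusted p = 5.76e-10). IGF2R was at 354, 362 and 346 CPM, above all senescent siCtrl libraries (0.27 ± 0.046, edgeR adjusted p = 1.43e-04).

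IGFBP6 and IGFBP4 fell. IGFBP6 was at 144, 130 and 138 CPM, below all 3 siCtrl libraries (-0.33 ± 0.046, edgeR adjusted p = 1.04e-05). These values overlapped those of proliferating cells, and the difference from them was 0.0025 ± 0.046 (edgeR adjusted p = 0.968). IGFBP4 was at 1595, 1464 and 1537 CPM, also below the siCtrl libraries (-0.28 ± 0.047, edgeR adjusted p = 1.08e-04) and still above the proliferating ones (0.39 ± 0.047, edgeR adjusted p = 1.20e-07).

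The remaining members were not called with siNTRK2. IGFBP3 was at 201, 198 and 203 CPM, lower than each siCtrl library by a small margin (-0.09 ± 0.042, edgeR adjusted p = 0.118). IGF2 was at 24.8, 18.8 and 25.4 CPM and IGF1R at 39.0, 42.4 and 38.4 CPM. Both overlapped senescent siCtrl, with log2 differences of 0.04 ± 0.093 and 0.05 ± 0.054 (edgeR adjusted p = 0.804 and 0.561).

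Markers of growth state, of fibroblasts and of leukocytes moved in this comparison too. Of 9 proliferation markers, 7 rose and 1 fell with siNTRK2, with a median log2 fold change of 0.62. MKI67 rose from 1.28 to 4.19 CPM (1.72 ± 0.17, edgeR adjusted p = 4.33e-08) and TOP2A from 11.3 to 24.3 CPM (1.11 ± 0.072, edgeR adjusted p = 7.09e-11), both still below their proliferating levels of 16.4 and 105 CPM. The marker that fell was PCNA, from 95.3 to 77.7 CPM, and since it made up most of the sum, the summed level was 147 to 160 CPM beside 142 to 145 CPM in senescent siCtrl. Of 8 fibroblast markers, 6 rose and 1 fell, with sums of 27216 to 30124 CPM, and of 6 senescence markers 5 fell and 1 rose, with sums of 2293 to 2454 CPM against 3260 to 3437 CPM in senescent siCtrl. The leukocyte marker sum was 77.2 to 80.7 CPM with siNTRK2 and 108 to 114 CPM in senescent siCtrl, and CD68 was the 1 of 4 tested that fell. None of the 3 tested endothelial, 3 tested epithelial and 4 tested myocyte and neuron markers was called by edgeR. Their part in the changes of the IGFBPs was not tested.

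**Figure D3:**
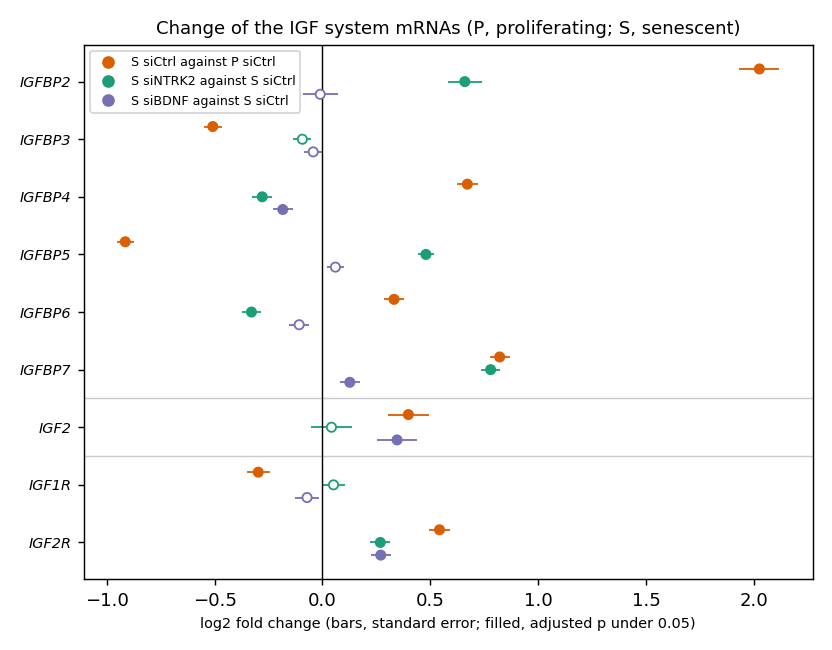
Log2 fold change (x axis) of the 9 tested IGF system mRNAs (y axis) in 3 comparisons, with bars for the standard error and filled points for an adjusted p under 0.05 (P proliferating, S senescent). IGFBP2 and IGFBP7 lie to the right of 0 both in senescence (2.03 and 0.82) and with siNTRK2 (0.66 and 0.78), whereas IGFBP4, IGFBP5 and IGFBP6 lie on opposite sides of 0 in these comparisons, which share the senescent siCtrl libraries.

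For siBDNF against siCtrl in senescent cells, 3 members rose and 1 fell, where 20.5% of all tested genes were called, 10.3% higher and 10.2% lower. The median log2 fold change was -0.01 over the 9 members and 0.004 over all tested genes. The called changes were small: IGF2 and IGF2R rose by 1.27-fold and 1.21-fold, and none passed an absolute log2 fold change of 1, which 0.609% of tested genes did.

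IGF2 was at 28.8, 27.7 and 28.8 CPM with siBDNF, the highest libraries of the series for this ligand (0.35 ± 0.093, edgeR adjusted p = 0.00853). The call was lost without siCtrl replicate 1, the lowest of the siCtrl libraries (0.29, edgeR adjusted p = 0.0677). IGF2R was at 344, 364 and 355 CPM, above all senescent siCtrl libraries (0.27 ± 0.046, edgeR adjusted p = 1.48e-04).

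IGFBP4 was at 1640, 1588 and 1682 CPM, below the siCtrl libraries, and fell by 0.18 on the log2 scale (standard error 0.047, edgeR adjusted p = 0.00601). The call was lost without siCtrl replicate 1 (adjusted p = 0.0516) and without siBDNF replicate 2 (adjusted p = 0.0501), both from edgeR. IGFBP7, at 518, 530 and 503 CPM, overlapped siCtrl and was called by a narrow margin (0.13 ± 0.045, edgeR adjusted p = 0.0488). That call was lost with DESeq2 size factors (adjusted p = 0.0591) and when any 1 of the 6 libraries other than siCtrl replicate 2 was left out (edgeR adjusted p between 0.0613 and 0.232).

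The other 5 tested members were not called. IGFBP2 was at 21.8, 20.3 and 20.5 CPM, within the range of siCtrl libraries or close to it (-0.01 ± 0.081, edgeR adjusted p = 0.954). IGFBP5 was at 1623, 1632 and 1678 CPM, IGFBP3 at 206, 207 and 211 CPM and IGFBP6 at 160 to 161 CPM. IGF1R was at 36.2, 36.99 and 36.7 CPM. The siBDNF libraries lay above all siCtrl libraries for IGFBP5 and below them for IGFBP6 and IGF1R, while those of IGFBP3 overlapped. The log2 differences of these 4 were 0.06 ± 0.038, -0.04 ± 0.042, -0.11 ± 0.046 and -0.07 ± 0.054 (edgeR adjusted p = 0.316, 0.550, 0.103 and 0.414), and a p above the threshold does not show that they were the same as in siCtrl.

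Beside these values, 1 of 9 proliferation markers rose with siBDNF, and their summed level was 142 to 146 CPM. Of 8 fibroblast markers 2 rose and 4 fell, and of 6 senescence markers 1 rose. The leukocyte marker sum was 179 to 183 CPM with siBDNF and 108 to 114 CPM in senescent siCtrl, where CD68 was the 1 of 4 tested that rose. The endothelial marker sum was 24.4 to 25.4 CPM with siBDNF and 34.4 to 36.2 CPM in senescent siCtrl, with 1 of 3 tested lower. Their part was not tested.

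The difference between the siRNAs was tested directly. Against siBDNF, 3 members were higher and 2 lower with siNTRK2, where 16.7% of all tested genes were called, 8.84% higher and 7.86% lower. The median log2 difference was -0.002 over the 9 members and -0.0037 over all tested genes. The higher members were the binding proteins IGFBP2 (0.67 ± 0.080), IGFBP7 (0.65 ± 0.045) and IGFBP5 (0.42 ± 0.038), with edgeR adjusted p of 1.07e-06, 1.12e-10 and 1.34e-08. For each of them, all 3 siNTRK2 libraries were above all 3 siBDNF libraries. No member passed an absolute log2 difference of 1, which 1.16% of tested genes did.

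The lower members with siNTRK2 were IGFBP6 (-0.22 ± 0.046, edgeR adjusted p = 0.00121) and IGF2 (-0.30 ± 0.093, edgeR adjusted p = 0.0244). For IGF2 the call rested on single libraries, since it was lost without siNTRK2 replicate 2, the lowest siNTRK2 library (-0.17, adjusted p = 0.183), and without siBDNF replicate 1, 2 or 3 (adjusted p between 0.0520 and 0.0869, all from edgeR). IGF2R, raised by both siRNAs against the same siCtrl libraries, differed between them by -0.002 ± 0.046 (edgeR adjusted p = 0.985). IGFBP4, IGFBP3 and IGF1R were not called either, with log2 differences of -0.10 ± 0.047, -0.05 ± 0.042 and 0.12 ± 0.054 (edgeR adjusted p = 0.182, 0.465 and 0.129). The libraries of IGFBP3 and IGF1R did not overlap between the siRNAs, while those of IGFBP4 did.

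From lowest to highest, the order of the 4 groups differed from member to member. IGFBP7 ran from proliferating through senescent siCtrl and siBDNF to siNTRK2, with group means of 268, 474, 517 and 813 CPM, and only the libraries of siCtrl and siBDNF overlapped. IGFBP2 ran from 5.18 CPM in proliferating cells to 20.9 with siBDNF, 20.99 with siCtrl and 33.1 with siNTRK2, the middle pair not being told apart. IGFBP5 was highest in proliferating cells, running from 1577 CPM in senescent siCtrl and 1644 with siBDNF, which were not called different, to 2200 with siNTRK2 and 2973 in proliferating cells.

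IGFBP4 rose from 1168 CPM in proliferating cells to 1532 with siNTRK2 and 1637 with siBDNF, which were not called different, and to 1860 in senescent siCtrl. IGFBP6 was lowest in proliferating cells and with siNTRK2 (137.2 and 137.3 CPM), and higher with siBDNF and siCtrl (160 and 173 CPM), where neither pair was called different. IGFBP3 separated proliferating cells at 305 CPM from the 3 senescent groups at 201 to 214 CPM, among which no pair was called. IGF1R did likewise, with 47.4 CPM in proliferating cells and 36.6 to 39.9 CPM in the senescent groups.

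IGF2 increased from 17.1 CPM in proliferating cells to 22.4 with siCtrl and 23.0 with siNTRK2, which overlapped, and to 28.4 with siBDNF. IGF2R increased from 202 CPM through 294 with siCtrl to 354 with both siNTRK2 and siBDNF. Against proliferating cells, 5 members were higher and 3 lower with siNTRK2, where 55.0% of all tested genes were called, 28.2% higher and 26.8% lower, and IGFBP2 and IGFBP7 passed an absolute log2 fold change of 1, which 14.8% of tested genes did. With siBDNF, 6 members were higher and 3 lower than in proliferating cells, where 58.7% of tested genes were called, 30.2% higher and 28.4% lower, and IGFBP2 alone passed the same size, as 17.6% of tested genes did.

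These shifts changed the make-up of the IGFBP mRNAs, taken as each one's share of the 6 summed per length of mRNA. In proliferating cells IGFBP4 made up 36.3% ± 0.779 and IGFBP5 32.7% ± 0.347 of a sum of 1459 ± 47.6 CPM per kilobase (SD, n = 3). In senescent siCtrl cells, IGFBP4 made up 49.4% ± 1.76 and IGFBP5 14.8% ± 0.476, and the sum was 1707 ± 23.3. The share of IGFBP7 was 12.9% ± 0.299 in proliferating cells and 19.5% ± 1.33 in senescent siCtrl cells.

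With siNTRK2, IGFBP7 made up 30.6% ± 0.332, IGFBP4 37.3% ± 0.262 and IGFBP5 18.9% ± 0.491 of a sum of 1862 ± 66.7 CPM per kilobase. With siBDNF, the shares were 22.2% ± 0.781, 45.5% ± 0.863 and 16.2% ± 0.178 of a sum of 1632 ± 15.98 (SD, n = 3). IGFBP6 held between 7.78% and 10.7%, IGFBP3 between 4.13% and 8.00%, and IGFBP2 no more than 1.254% in any group. Shares and sums are a description without a test, and both depend on the length used. From CPM not divided by length, the sum was 4856 ± 138 CPM in proliferating and 4318 ± 43.7 CPM in senescent siCtrl cells, so its direction turned, and it was 4916 ± 143 with siNTRK2 and 4187 ± 59.9 with siBDNF (SD, n = 3). On that scale IGFBP5 was the largest in proliferating cells at 61.2% and IGFBP4 the largest in senescent siCtrl cells at 43.1%. With siNTRK2 the order of this pair turned as well, with IGFBP5 at 44.8% and IGFBP4 at 31.2%, and with siBDNF they were level at 39.3% ± 0.291 and 39.1% ± 0.617.

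**Figure D4:**
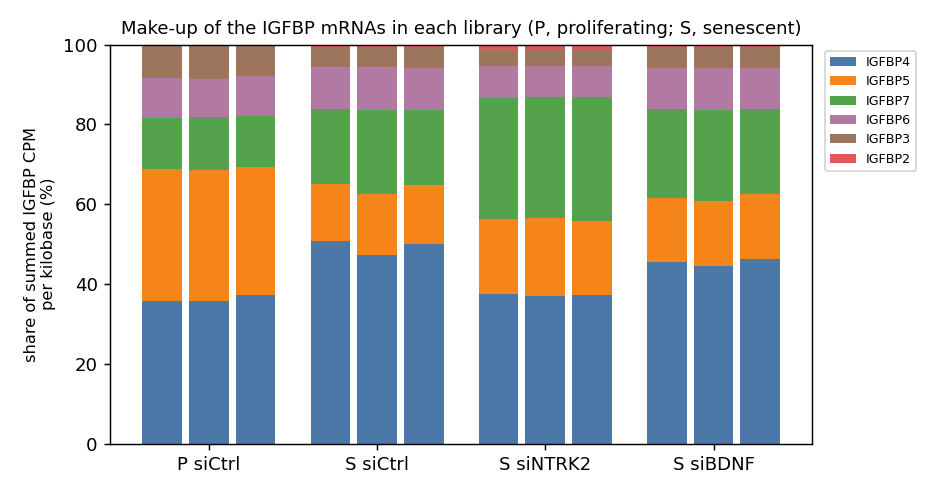
Share of each IGFBP (y axis, percent of the summed IGFBP CPM per kilobase of canonical transcript) in each of the 12 libraries (bars), grouped by condition (x axis, P proliferating, S senescent). IGFBP5 takes 32.7% in proliferating and 14.8% in senescent siCtrl cells on average, and IGFBP7 takes 12.9% and 19.5% there and 30.6% with siNTRK2.

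The other genes of the pathway, fixed as lists of 57 genes of which 51 could be tested, were called as follows. In senescence 25 rose and 18 fell, with a median log2 fold change of 0.16 beside 0.02 over all tested genes. Among those that rose, LRP2, WISP2, FOXO1, ADAM28 and GRB14 had at most 4 counts in any proliferating library. They passed the filter only through senescent libraries, as did PAPPA2, with 4 to 20 counts per proliferating library. A rise of these genes was thus favoured by the filter itself, and they enter this count and median. With siNTRK2 14 rose and 3 fell (median 0.06), and with siBDNF 18 rose and 5 fell (median 0.10), beside medians near 0 over all tested genes. Between siNTRK2 and siBDNF, 7 were higher and 8 lower with siNTRK2 (median -0.02). The shares called over all tested genes were 58.1% in senescence, 21.1% with siNTRK2, 20.5% with siBDNF and 16.7% between the siRNAs. They stand beside these pooled counts and beside the counts of each list below, and no list was tested as a set.

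Of the 8 proteases that cleave IGFBPs and the inhibitors of these proteases, 7 rose and 1 fell in senescence. STC1, which encodes the PAPPA inhibitor stanniocalcin-1, was at 61.7 CPM in proliferating and 324 CPM in senescent siCtrl cells (2.39 ± 0.050, edgeR adjusted p = 3.45e-22). PAPPA, the protease that cleaves IGFBP4, was at 66.6 and 143 CPM (1.10 ± 0.051, edgeR adjusted p = 1.47e-15). PAPPA2, which cleaves IGFBP3 and IGFBP5, was scarce, with 14, 20 and 4 counts in proliferating and 85, 69 and 71 in senescent cells (2.51 ± 0.30, edgeR adjusted p = 8.89e-08). PAPPA2 passed the filter only through senescent libraries, so a rise was favoured by the filter itself. ADAM28 was rarer still, with 0 to 4 counts in proliferating and 15 to 20 in senescent libraries, and ADAM9 fell slightly (-0.13 ± 0.044, edgeR adjusted p = 0.0152).

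With siNTRK2, 4 of these genes rose and 2 fell. ADAM12, a membrane protease that can cleave IGFBP3 and IGFBP5, rose by 0.79 ± 0.064, HTRA1, a secreted serine protease, by 0.65 ± 0.044, and ADAM9 by 0.38 ± 0.044 on the log2 scale (edgeR adjusted p = 2.21e-09, 1.32e-10 and 6.25e-07). With siBDNF, 4 rose and none fell. STC1 rose by 0.64 ± 0.046, ADAM12 by 0.58 ± 0.065 and PAPPA by 0.46 ± 0.049 (edgeR adjusted p = 3.92e-10, 5.28e-07 and 2.59e-07). STC1 was the clearest difference between the siRNAs, lower with siNTRK2 than with siBDNF (log2 difference -0.79 ± 0.046, edgeR adjusted p = 4.52e-12).

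Of 11 receptor adaptors and their phosphatases, 6 rose and 4 fell in senescence. IRS1, the docking protein of IGF1R and the insulin receptor, had a log2 fold change of -0.72 ± 0.050, and SHC1, which links the receptor to RAS, one of 0.55 ± 0.042 (edgeR adjusted p = 5.28e-12 and 3.00e-11). GRB14, which passed the filter only through senescent libraries, was called higher in senescence (edgeR adjusted p = 0.0351). It had 2 to 4 counts per proliferating and 5 to 19 per senescent siCtrl library. GRB10, an inhibitory adaptor, fell in senescence (-0.45 ± 0.062, edgeR adjusted p = 9.37e-07) and rose with both siRNAs (0.34 ± 0.062 with siNTRK2 and 0.45 ± 0.062 with siBDNF, edgeR adjusted p = 2.49e-04 and 9.52e-06). SHC1 fell with both siRNAs (-0.24 ± 0.042 and -0.26 ± 0.042, edgeR adjusted p = 1.68e-04 and 6.50e-05). The siRNA comparisons share the siCtrl libraries, and neither GRB10 nor SHC1 was called between siNTRK2 and siBDNF (edgeR adjusted p = 0.244 and 0.770).

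**Figure D5:**
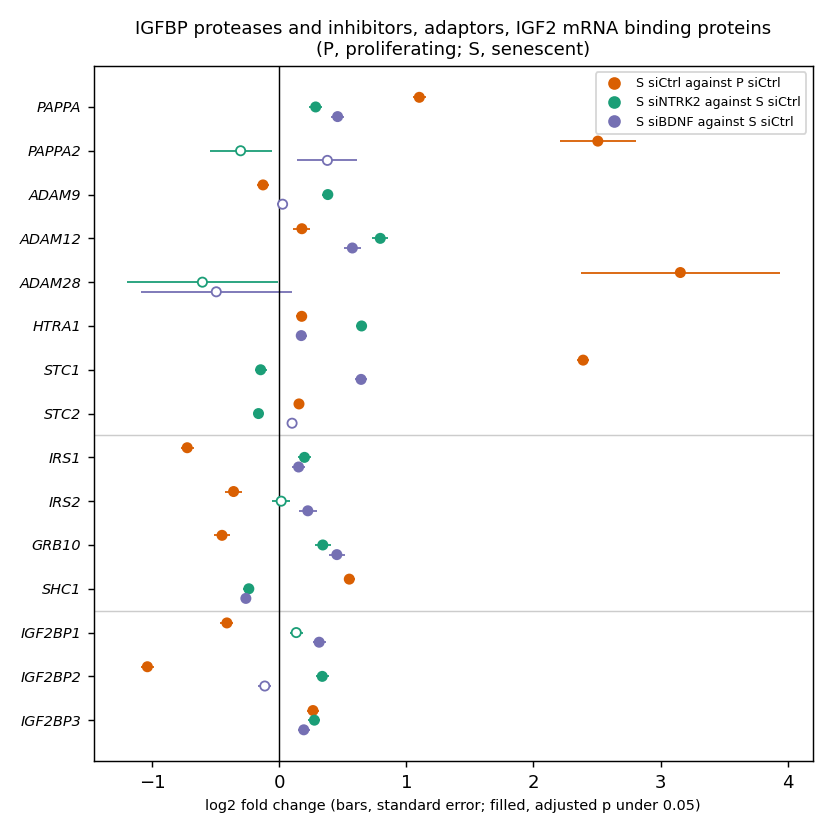
Log2 fold change (x axis) of genes of the IGF pathway (y axis: IGFBP proteases and their inhibitors at the top, receptor adaptors in the middle, IGF2 mRNA binding proteins at the bottom) in 3 comparisons, with bars for the standard error and filled points for an adjusted p under 0.05 (P proliferating, S senescent). STC1 lies at 2.39 in senescence, -0.15 with siNTRK2 and 0.64 with siBDNF, and IRS1 lies at -0.72 in senescence.

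The mRNAs for the IGF2 mRNA binding proteins, which bind IGF2 and many other transcripts, were called in all 3 cases in senescence. IGF2BP2 fell from 137 to 66.9 CPM (-1.04 ± 0.051, edgeR adjusted p = 4.77e-15) and IGF2BP1 from 60.7 to 45.6 CPM (-0.41 ± 0.051, edgeR adjusted p = 1.80e-07). IGF2BP3 rose (0.27 ± 0.047, edgeR adjusted p = 2.77e-05) and rose again with siNTRK2 and siBDNF. IGF2BP2 rose with siNTRK2 (0.34 ± 0.051, edgeR adjusted p = 2.59e-05), and IGF2BP1 with siBDNF (0.31 ± 0.051, edgeR adjusted p = 8.47e-05).

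Of the 21 genes of PI3K, AKT, FOXO and mTOR signalling, 8 rose and 7 fell in senescence, 3 rose with siNTRK2, and 8 rose and 1 fell with siBDNF. INPP5D, a lipid phosphatase best known from blood cells, was at 1.0 CPM in proliferating and 5.07 CPM in senescent siCtrl cells (2.31 ± 0.16, edgeR adjusted p = 7.64e-12), and FOXO1 had only 1 to 3 counts per proliferating library and 12 to 27 in the senescent ones. PIK3R1, a regulatory subunit of PI3K, rose with siBDNF (0.51 ± 0.10, edgeR adjusted p = 6.66e-04).

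Of the other ligands, receptors and carriers, 3 of 8 could be tested. LRP1, an endocytic receptor that also binds IGFBP3, was at 320 CPM in proliferating and 503 CPM in senescent siCtrl cells (0.65 ± 0.071, edgeR adjusted p = 2.10e-08), and it rose with siNTRK2 (0.54 ± 0.071) and siBDNF (0.64 ± 0.071; edgeR adjusted p = 4.17e-06 and 3.96e-07). The insulin receptor INSR fell in senescence (-0.53 ± 0.13, edgeR adjusted p = 0.00126). LRP2 had 0 counts in all proliferating libraries and 6 to 12 in senescent siCtrl libraries, at least 2.55-fold higher with the floor of 3 counts per library in proliferating cells.

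Of the 5 tested CCN genes, whose proteins carry an IGFBP-like domain, 1 rose and 3 fell in senescence. WISP1 (CCN4) had a log2 fold change of -1.90 ± 0.14 and CYR61 (CCN1) one of -0.96 ± 0.041 (edgeR adjusted p = 2.67e-11 and 4.29e-16), while WISP2 (CCN5) rose from 0 to 1 count to 8 to 19 counts per library. CYR61 rose with siNTRK2 (0.31 ± 0.041, edgeR adjusted p = 4.67e-06) and fell with siBDNF (-0.18 ± 0.041, edgeR adjusted p = 0.00273).

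Genes that share exons or a locus with a member bear on what its counts hold. IGFBP7 shares 94 exon bases with IGFBP7-AS1 and 260 with POLR2B, both on the opposite strand, and the sources used here do not state whether the counting used strand, so reads of IGFBP7 and of these partners may not have been told apart. The counts of IGFBP7-AS1 were 24.2% to 27.7% of those of IGFBP7 in every library. IGFBP7-AS1 rose in senescence (0.84 ± 0.064, edgeR adjusted p = 2.77e-11) and with siNTRK2 (0.75 ± 0.062, edgeR adjusted p = 3.06e-09), and was not called with siBDNF (0.14 ± 0.062, edgeR adjusted p = 0.133).

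IGFBP5 shares 487 exon bases with DIRC3-AS1 and IGF2R shares 571 with CHP1P2, but these partners had only 208 and 330 counts summed over the 12 libraries. IGF1 shares 6693 of 8115 exon bases with HELLPAR, on the opposite strand. IGF2 shares 2711 of 7146 with ENSG00000284779, on the same strand. Neither HELLPAR nor ENSG00000284779 was among the genes counted, so any reads of theirs may not have been told apart from those of IGF1 and IGF2. H19, the noncoding neighbour of IGF2, had 0 to 6 counts in proliferating and 11 to 31 in senescent siCtrl libraries, and was called higher in senescence (edgeR adjusted p = 2.02e-04). It passed the filter only through senescent libraries, so a rise was favoured by the filter itself.

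The genes whose log2 CPM followed each member most closely over the 12 libraries were sought among 15567 genes with a mean of at least 1 CPM, as a description in which the 4 groups and the shared libraries set most of the pattern. IGFBP5 was followed most closely by COL3A1, THBS2 and MYLK (Pearson r 0.996, 0.994 and 0.994). IGFBP7 was followed by HEXA, IGFBP7-AS1 and TGFBI (0.995, 0.995 and 0.994), and IGFBP2 by TMEM59L, DPP7 and SULF2 (0.993, 0.992 and 0.990). COL3A1 and THBS2 encode matrix proteins, and HEXA and DPP7 lysosomal enzymes.

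For IGFBP4 the closest genes were CLPTM1, LMF2 and CDIP1 (0.996, 0.993 and 0.993), for IGFBP3 CLDN11, PELI2 and TADA3 (0.995, 0.994 and 0.993), and for IGFBP6 HSPB6, ENSG00000267328 and ATP8B2 (0.992, 0.990 and 0.974). IGF2R was followed by COL4A6, PSAP, which encodes a lysosomal protein precursor, and SPTAN1 (0.994, 0.993 and 0.991). IGF1R was followed by PDIA3, EBNA1BP2 and CS (0.989, 0.986 and 0.985). IGF2 had the weakest likeness of the tested members, with FAM222B, EIF2AK3 and BCL9L (0.968, 0.957 and 0.956).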

How the data were processed

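RNA from WI-38 fibroblasts was made into stranded libraries of polyadenylated RNA. The authors demultiplexed reads with bcl2fastq 2.20.0.422, trimmed adapters with Cutadapt, aligned to hg19 (GRCh37) with STAR 2.4.0j, counted per gene with featureCounts 1.6.4 and deposited raw counts per gene, 1 file per library. Use of strand and the handling of overlapping genes in counting are not given in the sources used here. Of 57773 identifiers, 55538 were paired with a symbol and a length.

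Groups were taken from the sample labels. Counts of all 12 libraries (31567912 to 72328151) were fitted together with edgeR 4.0.16 in R 4.3.3 (TMM, filterByExpr over the 4 groups, 1 term per group, quasi-likelihood test, Benjamini-Hochberg adjustment over 21518 genes). Standard errors are the log2 fold change over the square root of F. CPM per kilobase used the canonical transcript in the GENCODE annotation mapped to GRCh37, which also gave positions, and windows came from the GRCh37 genome. The study's methods name DESeq2 with an absolute log2 fold change over 1, and both were run as alternatives (DESeq2 1.42.0).

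Members, gene lists and tests were chosen with earlier results of these data known. All members were named, and from each pathway list at most the 3 largest called changes per comparison. PAPPA, ADAM9 and GRB10 in senescence were added after their values were seen. The nearest genes by Pearson r were taken at 3 per member. No pair of replicates agreed within sampling noise. The models were tested on data simulated for siNTRK2 against siCtrl in senescent cells. Of 50 genes changed by 1.25-fold, 25 were recovered, beside 49 of 50 changed by 2-fold, with 11 false calls in 20860 genes. The changed genes were picked only among the better expressed ones in senescent siCtrl, so recovery of genes with few counts was not tested. The simulated spread followed the trend over all genes, not the spread of each gene. Protein sequences were not used here, and some items are not reported here.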

Additional observations from a re-analysis of the deposited data

How the results depend on the processing

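Alternatives were the DESeq2 Wald test, the size factors of DESeq2, library totals only, no filter, at least 10 counts in every library, the replicate number as a block, only the groups compared, a fold change threshold and leaving out each library. With an absolute log2 fold change over 1 as well, members called were 1 in senescence, 0 with siNTRK2, 0 with siBDNF, 0 between them, 2 for siNTRK2 and 1 for siBDNF against proliferating cells, and other pathway genes 11 in senescence and 0 in the other 3 comparisons. Leaving out a library gave 1 to 4 members for siBDNF (1 without siCtrl replicate 1, 2 without siBDNF replicate 2), and 9 to 15 other pathway genes between siNTRK2 and siBDNF (9 without siBDNF replicate 1). Only differences that were not called changed sign: IGF2 with siNTRK2 (-0.035 to 0.17 on leaving out a library), IGFBP2 with siBDNF (0.047 with library totals, 3.2e-04 without the filter, -0.038 to 0.013 on leaving out a library), IGFBP3 with siBDNF (0.015 with library totals), and IGF2R between the siRNAs (8.2e-04 without the filter, 1.5e-04 with only the groups compared, -0.015 to 0.024 on leaving out a library). Not called above but called elsewhere were IGFBP3 with siNTRK2 (DESeq2, adjusted p = 0.0333), IGFBP5 with siBDNF (library totals, 0.0153), IGFBP6 with siBDNF (only the groups compared, 0.0282) and IGFBP4 between the siRNAs (library totals, 0.0255). Composition without length gave IGFBP4 24.03% and IGFBP5 61.2% in proliferating and 43.1% and 36.5% in senescent siCtrl cells, and with all annotated exons joined, a length chosen after seeing the data, 40.8%, 35.4%, 55.7% and 16.1%. Same-numbered libraries showed no shared deviation from their group means (mean correlation 0.0124 over 15568 genes, lowest -0.114, and 4 of 12 libraries correlated best with their own number). With the replicate block, 3 instead of 4 members were called for siBDNF, IGFBP7 having an adjusted p of 0.05002, and the member counts of the other comparisons were unchanged. The causes were not tested. Depth limits IGF1, ADAM28, FOXO1, GRB14, H19, LRP2 and WISP2, which had few counts per library, and PAPPA2, which had few in the proliferating libraries.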

Other observations

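Family members and carriers outside the comparisons had low counts, at most 23 in any library. IGFBP1, a binding protein made mainly by liver and decidua, had 1, 3 and 0 counts in proliferating libraries, 7, 1 and 23 in senescent siCtrl libraries, 6, 0 and 8 with siNTRK2 and 3, 2 and 11 with siBDNF. IGFALS, which encodes the acid-labile subunit of the serum IGF complex, had 0 to 8 counts per library, and IGFBPL1 had 0 to 7. INS had 0 counts in all 12 libraries. IGF2-AS, on the strand opposite IGF2, had 0 to 10 counts per library.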
